A study of Homo sapiens with 12 samples.

Results

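The response of NUGC-4 cells to IN10018 and crizotinib together was compared with the sum of their responses to each drug given alone, gene by gene. On the log2 scale the departure from additivity is the combination minus IN10018 minus crizotinib plus the control, which equals the change with IN10018 on top of crizotinib minus the change with IN10018 alone. A departure of 0 means that the fractions of the control level left by each drug multiply, a departure below 0 means that the combination lay lower than this product, and a departure above 0 that it lay higher. Of 60623 genes in the count matrix, 17096 passed a filter on low counts (about 0.621 CPM, reads per 1e6 library reads, in enough libraries for a group of 3) and were tested. The dropped genes included 24944 with 0 reads.

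NUGC-4 is an established line labelled as diffuse gastric cancer and as wild type. All 4 groups were treated for 24 h: a control, IN10018 at 1 µM, crizotinib at 1 µM, and both drugs at 1 µM each, with 3 libraries per group and 12 in all. Every group is the same line, 1 dose of each drug and 1 time, so additivity was measured at a single point of the dose range, and the vehicle of the control is not named in the labels. Nothing in the labels tells if replicate libraries are separate cultures, so p-values reflect only the spread among these libraries, which may be technical. Library totals ran from 13691844 to 20489708 reads. The keratins KRT8 (1391 CPM in the control) and KRT18 (617 CPM) and EPCAM (18.6 CPM) were present, but KRT19 and CDX1 were at 0 reads, and 6 of 13 gastric epithelial markers passed the filter. A description label names adipogenic differentiation. Of 13 adipocyte markers 7 passed the filter, with FABP4 at 71.3 CPM, PPARG at 39.2 CPM and LIPE at 14.6 CPM in the control. PLIN1, PLIN4, CEBPA and CD36 also passed, at only 0.68 to 1.91 CPM in the control, and ADIPOQ and LPL were at 0 reads. Of 10 fibroblast markers 7 passed, with COL3A1 at 6046 CPM and POSTN at 670 CPM in the control. The others that passed, COL1A1, DCN, LUM, PDGFRA and PDGFRB, were at only 0.61 to 1.85 CPM there, and FAP was at 0 reads. On the first principal component crizotinib library 2 (score 57.8) lay among the combination libraries (37.8 to 91.4), far from the other crizotinib libraries (-4.6 and 10.3). Mitochondrially encoded genes took 5.2% of its reads, against 13.3 and 9.5% in those 2, 4.3 to 7.0% with both drugs, and 11 to 12.7% in the control and IN10018 libraries.

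As background, IN10018 inhibits focal adhesion kinase (FAK, gene PTK2), which relays signals from integrins, and crizotinib inhibits the receptor kinases MET, ALK and ROS1. Signals from adhesions and from receptor kinases meet on shared cascades such as the ERK pathway, whose first transcriptional output is the immediate early genes: FOS, FOSB, EGR1, ATF3, the NR4A receptors, KLF factors and others that growth factors or stress switch on without new protein synthesis. FOS and FOSB proteins pair with JUN proteins to form the AP-1 factor. The study's title asks about synergism of FAK and ROS1 inhibitors, and the contrast here measures only whether transcript levels departed from the product of the single-drug effects.

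The departure was called (edgeR quasi-likelihood F test, Benjamini-Hochberg adjusted p under 0.05) for 12 genes, 0.0702% of those tested. Of these, 2 lay below additivity (0.0117% of tested genes), FOS and FOSB, and 10 lay above it (0.0585%): TRIB1, NR4A2, ATF3, KLF6, H2AX, RPL13P12, ZNF428, LINC01315, SLC39A3 and NXT1. An unadjusted p under 0.05 was reached by 1367 genes, 568 above and 799 below. In all 12 called genes, the level with each single drug was below the control, so that the 2 genes below additivity were lower with both drugs than the single-drug decreases give, and the 10 genes above additivity were higher with both drugs than those decreases give, 5 of them above the control. IN10018 alone was called for 0.503% of tested genes and crizotinib alone for 37.6%. Both single-drug changes were called for 7 of the 12 (FOS, FOSB, TRIB1, NR4A2, ATF3, KLF6 and H2AX), only that of IN10018 for LINC01315, and neither for RPL13P12, ZNF428, NXT1 and SLC39A3. The single-drug comparisons share the control libraries with each other, and all their libraries with the departure. A low single-drug level raises the departure by construction, so these signs and calls are given as a description. The change with crizotinib alone was only -0.10 ± 0.14 for NXT1 and -0.33 ± 0.23 for LINC01315.

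The promoters of 4 called immediate early genes are shown as a description: FOS and FOSB lay below additivity, and ATF3 and KLF6 above it. A link between promoter sequence and departure was not tested. RefSeq promoter windows (build GRCh38.p14) were found for 9 of the 12 called genes, and not for TRIB1, NR4A2 and RPL13P12. TRIB1 and NR4A2, the other immediate early genes called above additivity, are thus missing here. Each run below is the 250 bases before the start site, 5′ to 3′ on the gene's strand, in lower case, with capitals for a match to TGACGT, the left part of the cAMP response element TGACGTCA that CREB and ATF proteins bind, or to TGACATCA, a run of letters close to it. The windows are chr14:75278578-75278827 (plus strand) for FOS, chr19:45467746-45467995 (plus) for FOSB, chr1:212565157-212565406 (plus) for ATF3 and chr10:3785210-3785459 (minus) for KLF6.
FOS: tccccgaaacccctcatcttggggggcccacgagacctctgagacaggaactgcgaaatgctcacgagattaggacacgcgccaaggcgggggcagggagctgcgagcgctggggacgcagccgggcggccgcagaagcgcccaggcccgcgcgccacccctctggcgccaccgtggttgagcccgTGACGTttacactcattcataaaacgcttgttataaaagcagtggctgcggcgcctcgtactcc
FOSB: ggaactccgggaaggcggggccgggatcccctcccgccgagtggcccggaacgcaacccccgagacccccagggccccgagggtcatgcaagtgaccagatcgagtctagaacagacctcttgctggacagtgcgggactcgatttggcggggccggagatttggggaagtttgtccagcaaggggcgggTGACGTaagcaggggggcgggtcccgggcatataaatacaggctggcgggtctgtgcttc
ATF3: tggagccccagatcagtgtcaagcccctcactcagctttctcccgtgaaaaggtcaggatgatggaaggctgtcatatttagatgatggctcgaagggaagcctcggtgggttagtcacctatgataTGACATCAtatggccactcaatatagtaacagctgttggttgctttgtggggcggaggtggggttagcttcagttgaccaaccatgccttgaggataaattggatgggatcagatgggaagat
KLF6: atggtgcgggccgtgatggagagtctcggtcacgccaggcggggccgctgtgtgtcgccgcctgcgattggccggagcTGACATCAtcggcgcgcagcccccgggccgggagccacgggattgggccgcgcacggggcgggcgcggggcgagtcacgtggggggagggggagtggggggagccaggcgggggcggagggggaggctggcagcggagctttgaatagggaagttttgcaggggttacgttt

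Counted from the start site, TGACGT lay at -64 to -59 in FOS and at -60 to -55 in FOSB, and TGACATCA lay at -123 to -116 in ATF3 and at -172 to -165 in KLF6. TGACGT was also found, on the other strand, in the window of LINC01315 at -224 to -219. These 2 motifs were chosen after the sequences had been read. Over 35116 RefSeq promoter windows of the same length, searched on both strands, TGACGT was held by 7.1% and TGACATCA by 2.37%. The full element TGACGTCA (1.65% of windows), the AP-1 site TGANTCA (6.57%) and the CArG box bound by serum response factor (1.16%) were not found in the 9 windows, which says only that these letters are not in this stretch. Only the first window listed for each gene was searched, so other start sites of these genes are not covered. Which start site these cells use was not measured. A match is a description of the sequence, not a measured site.

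FOS (ENSG00000170345, chr14:75278774-75282230 on GRCh38) was the gene lowest against additivity among those called. Its level was 817.9, 969.3 and 1047 CPM in the control libraries, 431.0, 374.8 and 414.0 CPM with IN10018, 168.3, 145.4 and 120.1 CPM with crizotinib, and 9.82, 11.1 and 18 CPM with both. The 4 groups did not overlap, and each combination library lay far under every crizotinib library. IN10018 alone left 43.0% of the mean control level and crizotinib alone 15.3%, so additivity gives 6.59%, whereas 1.37% was left with both. The departure was -2.26 ± 0.27 (log2 ± SE, edgeR adjusted p = 0.0054), 4.79-fold under the additive level. The change with IN10018 was -1.22 ± 0.18 on its own and -3.48 ± 0.21 on top of crizotinib. The libraries are bulk RNA, so a lower level in every cell and fewer cells that express the gene cannot be told apart.

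FOSB (ENSG00000125740, chr19:45467995-45475179), the closest relative of FOS, followed the same order. It stood at 369.2, 566.9 and 514.0 CPM in the control, 210.4, 185.6 and 191.0 CPM with IN10018, 24.6, 27.2 and 18.01 CPM with crizotinib, and 2.80, 2.92 and 2.39 CPM with both drugs. Again no 2 groups overlapped, and the combination libraries were the lowest and lay close to each other. Additivity gives 1.95% of the control level and 0.559% was left, a departure of -1.80 ± 0.26 (edgeR adjusted p = 0.016), or 3.49-fold under the additive level. The change with IN10018 went from -1.31 ± 0.16 alone to -3.11 ± 0.21 on top of crizotinib. In that second comparison, IN10018 added to crizotinib, FOS (edgeR adjusted p = 1.6e-06) and FOSB (3.9e-06) were the genes called lower, 0.0117% of those tested. The departure of FOSB was no longer called without IN10018 library 1, 2 or 3 or without combination library 1 or 3 (-1.86 to -1.75, edgeR adjusted p 0.054 to 0.087), while that of FOS was called with any 1 of the 12 libraries left out (-2.62 to -2.09).

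**Figure D1:**
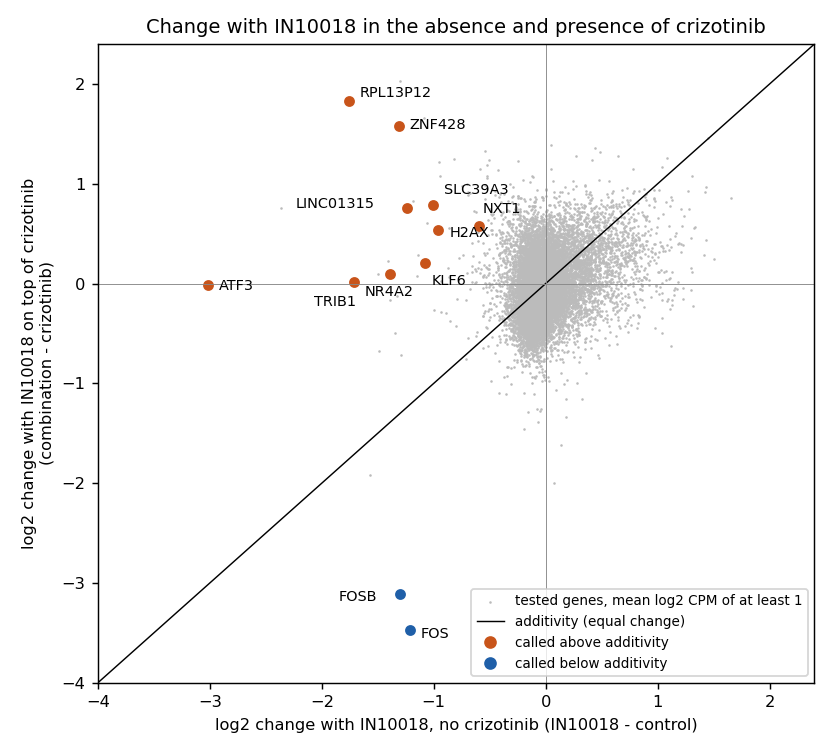
Change with IN10018 on the log2 scale in the absence of crizotinib (x axis, IN10018 minus control) against that on top of crizotinib (y axis, combination minus crizotinib). Grey points are the 12839 tested genes with a mean log2 CPM of at least 1, the diagonal marks additivity, and coloured points are the 12 called genes. All 12 lie left of 0 on the x axis. FOS and FOSB sit below the diagonal at -3.48 and -3.11 on the y axis, and TRIB1, NR4A2, ATF3 and KLF6 lie between -0.01 and 0.20 on it.

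TRIB1, a pseudokinase that directs a ubiquitin ligase to C/EBP factors, had the smallest p of all tested genes (ENSG00000173334, chr8:125430321-125438405). Its level was 222.7, 271.9 and 285.3 CPM in the control, 79.7, 74.3 and 84.1 CPM with IN10018, 46.8, 36.4 and 48.5 CPM with crizotinib, and 44.8, 40.6 and 47.3 CPM with both. The combination libraries thus fell within the range of the crizotinib libraries, below all IN10018 libraries. IN10018 alone left 30.5% and crizotinib alone 16.9% of the control level; additivity gives 5.15%, and 17.0% was seen. The departure was 1.72 ± 0.18 (edgeR adjusted p = 0.0031): the change with IN10018 was -1.71 ± 0.13 alone and 0.01 ± 0.13 on top of crizotinib. It was called with any 1 library left out (1.60 to 1.78).

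NR4A2, an orphan nuclear receptor (ENSG00000153234, chr2:156324432-156342348), had the same pattern. Its control libraries held 84.7, 121.4 and 98.9 CPM, the IN10018 libraries 39.99, 36.3 and 39.8 CPM, the crizotinib libraries 23.8, 22.5 and 22.7 CPM, and the combination libraries 27.2, 21.9 and 24.4 CPM. Crizotinib and the combination overlapped, and both lay under IN10018. The observed 24.1% of control was set against 8.60% under additivity, a departure of 1.49 ± 0.19 (edgeR adjusted p = 0.0074). The change with IN10018 was -1.39 ± 0.13 alone and 0.09 ± 0.13 on crizotinib. Without IN10018 library 2, IN10018 library 3 or crizotinib library 3 the departure was not called (edgeR adjusted p 0.058, 0.074 and 0.063).

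KLF6, a zinc finger factor (ENSG00000067082, chr10:3775996-3785281), was reduced to a like level by every treatment. It read 198.0, 228.1 and 240.1 CPM in the control, 106.4, 99.03 and 109.9 CPM with IN10018, 76.5, 116.4 and 100.8 CPM with crizotinib, and 108.0, 123.0 and 106.9 CPM with both. The 3 treated groups overlapped with each other and lay below the control. The level with both drugs was 50.7% of control against 20.9% under additivity, a departure of 1.28 ± 0.19 (edgeR adjusted p = 0.022). This call was the least stable among the immediate early genes: it was kept in 2 of the 12 fits with 1 library left out (those without crizotinib library 1 or 2), and the departure ran from 1.10 to 1.43 over the 12 fits (edgeR adjusted p 0.0011 to 0.14).

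ATF3, a stress-induced factor that is also a target of the integrated stress response (ENSG00000162772, chr1:212565334-212620777), fell furthest with IN10018 among the 12. Its reads, rather than CPM, show how little was left: 279, 436 and 432 reads in the control, 55, 51 and 39 reads with IN10018, 14, 7 and 12 reads with crizotinib, and 12, 13 and 6 reads with both. Crizotinib and the combination were thus at the same few reads per library. IN10018 alone left 12.3% of the control level and crizotinib alone 2.84%; the product is 0.35%, or 1.30 reads per combination library, and 10.3 reads were counted on average (2.83%). The departure of 3.01 ± 0.43 (edgeR adjusted p = 0.016) therefore rests on an additive level under 3 reads. At that level a departure below additivity could hardly have been seen in this gene. Each combination library held more reads than the 1.30 that additivity gives. Without control library 1 or 2, IN10018 library 2 or 3, crizotinib library 3 or combination library 1 or 2 the call was lost (2.71 to 3.07, edgeR adjusted p 0.051 to 0.14).

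**Figure D2:**
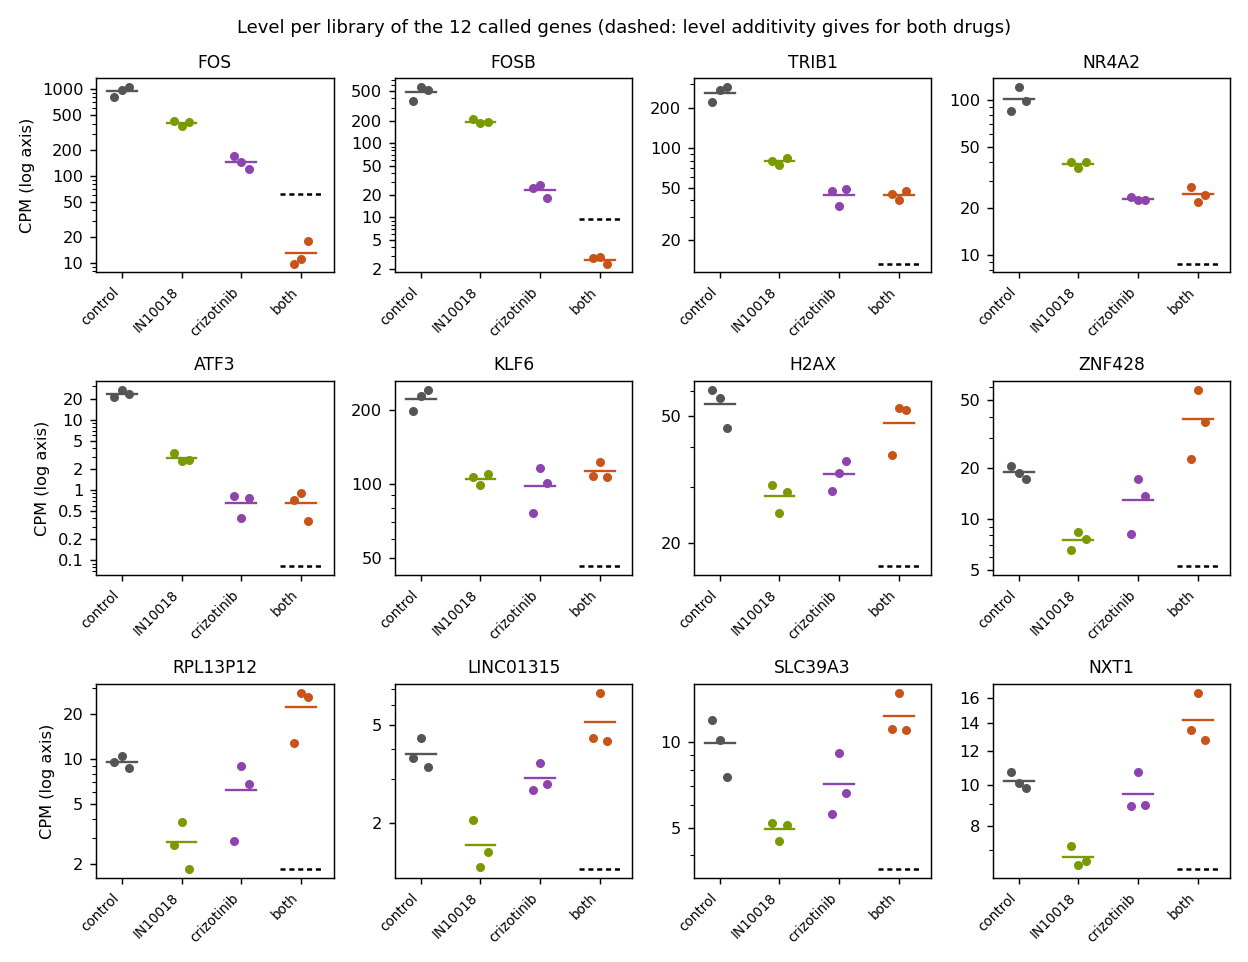
Level of the 12 called genes in each library, in CPM on log axes, with 1 point per library, a solid line at the group mean and a dashed line at the level that additivity gives for both drugs. The combination libraries of FOS and FOSB lie under the dashed line, and those of the other 10 genes lie above it. For RPL13P12, ZNF428 and NXT1 each combination library lies above each control library.

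The other 6 called genes are not on the immediate early list, and in 5 of them the combination lay above the control. RPL13P12 is a processed pseudogene of the ribosomal protein gene RPL13 (ENSG00000215030, chr17:17383377-17384012), whose reads may be shared with its parent gene. It held 9.58, 10.53 and 8.73 CPM in the control, 2.66, 3.84 and 1.86 CPM with IN10018, 2.84, 8.96 and 6.81 CPM with crizotinib, and 12.8, 27.7 and 26.0 CPM with both drugs. The combination libraries were above every control library, although all single-drug libraries but crizotinib library 2 lay below every control library. Its departure of 3.59 ± 0.52 (edgeR adjusted p = 0.016) was the highest of the called genes, with 230.5% of control seen and 18.7% given by additivity. ZNF428, a zinc finger protein gene (ENSG00000131116, chr19:43607219-43619874), was at 20.5, 18.8 and 17.1 CPM in the control, 6.55, 8.44 and 7.65 CPM with IN10018, 8.18, 17.1 and 13.7 CPM with crizotinib, and 22.5, 57.5 and 37.2 CPM with both. Here too the combination libraries were above the control and the IN10018 libraries below it, and the departure was 2.89 ± 0.42 (edgeR adjusted p = 0.016). In both genes library 2 was the highest of the crizotinib group and of the combination group. Neither was called when any of control libraries 1 and 2, the IN10018 libraries, crizotinib library 3 and combination library 3 was left out (3.34 to 3.91 for RPL13P12 and 2.79 to 2.98 for ZNF428, edgeR adjusted p 0.058 to 0.095).

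H2AX, the histone variant that is phosphorylated at DNA breaks (ENSG00000188486, chr11:119093854-119095467), came back towards the control with both drugs. It was at 60.3, 57.1 and 46.0 CPM in the control, 30.4, 24.9 and 28.8 CPM with IN10018, 29.2, 33.1 and 36.2 CPM with crizotinib, and 37.8, 52.9 and 52.4 CPM with both. Each combination library lay above all 6 single-drug libraries and within or below the range of the control. Its departure was 1.497 ± 0.21 (edgeR adjusted p = 0.016), and the combination differed from the control by -0.19 ± 0.15 (edgeR adjusted p = 0.28). The departure of H2AX was not called when the same libraries as for ZNF428 were left out, each in turn (1.38 to 1.56, edgeR adjusted p 0.060 to 0.095).

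NXT1, a partner of the messenger RNA export receptor (ENSG00000132661, chr20:23350736-23354777), was at 10.7, 10.1 and 9.85 CPM in the control, 7.17, 6.47 and 6.62 CPM with IN10018, 8.89, 10.7 and 8.97 CPM with crizotinib, and 13.5, 16.5 and 12.7 CPM with both, with the combination above all other libraries. The long intergenic non-coding RNA LINC01315 (ENSG00000229891, chr22:42364400-42369236) was at 3.67, 4.42 and 3.35 CPM in the control, 2.04, 1.31 and 1.52 CPM with IN10018, 2.73, 3.48 and 2.86 CPM with crizotinib, and 4.40, 6.74 and 4.29 CPM with both. SLC39A3, a zinc transporter gene (ENSG00000141873, chr19:2732204-2740152), was at 12.05, 10.2 and 7.56 CPM in the control, 5.19, 4.497 and 5.10 CPM with IN10018, 5.57, 9.19 and 6.62 CPM with crizotinib, and 11.1, 14.9 and 11.1 CPM with both. In these last 2 genes the combination overlapped the control and lay above the single drugs. As in RPL13P12 and ZNF428, library 2 was the highest of the crizotinib group and of the combination group in NXT1, LINC01315 and SLC39A3. The departures were 1.17 ± 0.19, 1.99 ± 0.33 and 1.80 ± 0.30, all just inside the threshold (edgeR adjusted p = 0.046). NXT1 and LINC01315 were called in 1 of the 12 fits with a library left out, that without crizotinib library 2, and SLC39A3 in 2, those without crizotinib library 2 or control library 3 (edgeR adjusted p up to 0.25 in the others). Against the control, a comparison called for 62.8% of tested genes, the combination was higher by 1.20 ± 0.34 for RPL13P12, 1.05 ± 0.28 for ZNF428 and 0.48 ± 0.13 for NXT1 (edgeR adjusted p = 0.0069, 0.0055 and 0.0068), and stood at 0.43 ± 0.22 for LINC01315 and 0.32 ± 0.20 for SLC39A3 (edgeR adjusted p = 0.10 and 0.18). Just outside the threshold, with mean levels under 1 CPM, were AC010201.2 (-3.43, edgeR adjusted p = 0.062) and MGAT2 (4.42, 0.11).

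These 6 genes were shorter and richer in G and C than most. Their transcripts had a median GC content of 59.7% and a median length of 1277 bases, against 50.2% and 3554 for the 6 called immediate early genes and 48.2% and 2988 over all tested genes. Over all genes, the median departure went up with GC content, over 4 equal bins of genes, from -0.22 in the bin lowest in GC to -0.14, -0.003 and 0.21 in the others. With an offset for GC content and length in the fit, an alternative chosen after seeing the data, the departure of H2AX was 1.00 (edgeR adjusted p = 0.28), and 9 of the 10 genes above additivity and both below it were called. The median departure was -0.24 in 2588 long non-coding genes, of which 1 was called, and -0.02 in 12491 protein-coding genes. The part of GC content in these results was not tested beyond that fit.

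Among 38 listed immediate early genes, 35 passed the filter, of which 4 were called above additivity, 2 below, and 29 were not called. Over all tested genes, 0.0585% were called above and 0.0117% below. EGR2, EGR3 and EGR4 were not tested, with 17, 3 and 14 reads over all libraries. The departure was above 0 in 26 of the 35, and in 44.0% of all tested genes. Its median in the list was 0.57, with a range from -2.26 to 3.01, against a median of -0.05 over all tested genes. The median change with IN10018 was -0.42 alone and -0.01 on top of crizotinib. The summed level of the list was 3708 to 4403 CPM in the control, 2277 to 2421 CPM with IN10018, 1708 to 1755 CPM with crizotinib and 1552 to 1622 CPM with both, in an order without overlap. FOS alone made up 818 to 1047 CPM of the control sums. It held 120.1 to 168.3 CPM with crizotinib and 9.82 to 18 CPM with both drugs. FOSB held 18.01 to 27.2 CPM with crizotinib and 2.39 to 2.92 CPM with both. Between these groups other members went either way in mean level: JUND and IER3 rose, and MCL1 and MYC fell. With a median change of -0.01 there, the lower sum with both drugs does not show a fall across the list.

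**Figure D3:**
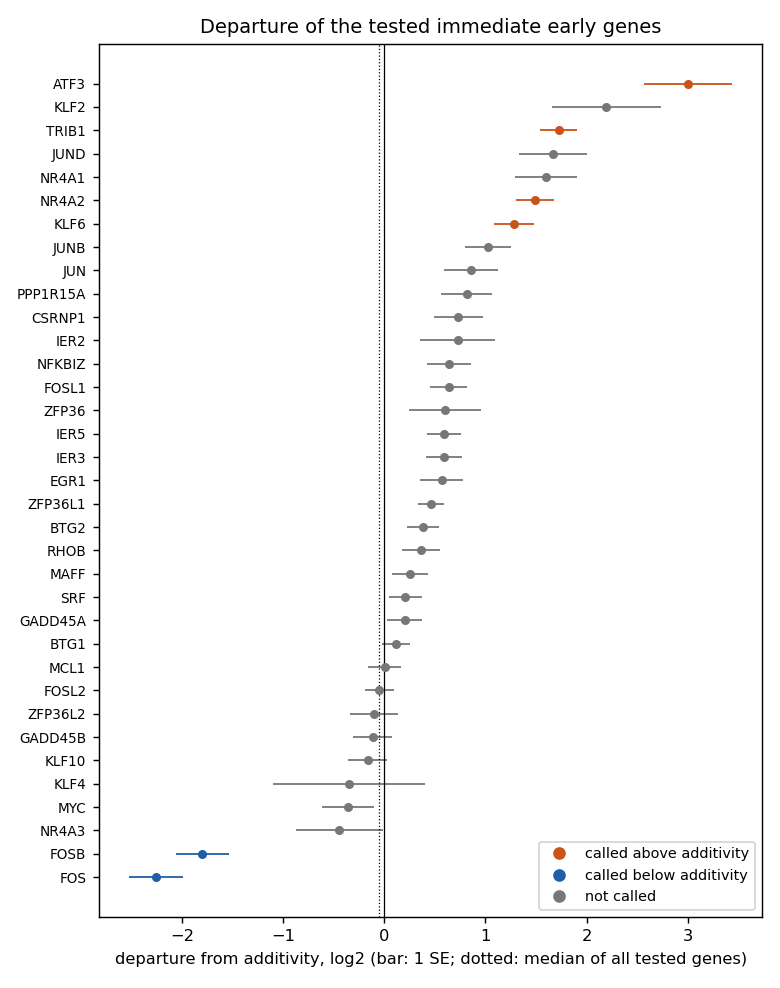
Departure from additivity on the log2 scale (x axis, point with a bar of 1 SE) for the 35 tested immediate early genes, ordered by its value. Coloured points mark the 6 called genes, the solid line is additivity and the dotted line the median of all tested genes (-0.05). FOSB and FOS lie at -1.80 and -2.26, apart from the next gene above them, NR4A3 at -0.45.

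Relatives of the called genes, named here after their values were seen, did not all share their sign. In the FOS family, FOSL1 was at 0.64 ± 0.18 and FOSL2 at -0.05 ± 0.14 (edgeR adjusted p = 0.34 and 0.89), on the other side of FOS and FOSB or near 0. FOSL2 held 287.2 to 302.6 CPM in the control and 206.3 to 235.0 CPM with both drugs, below the control in every library. The JUN genes, whose proteins pair with FOS proteins, were all above 0 without a call: JUND at 1.67 ± 0.33, JUNB at 1.03 ± 0.23 and JUN at 0.86 ± 0.27 (edgeR adjusted p = 0.12, 0.19 and 0.41). JUND was at 118.2, 114.7 and 111.0 CPM in the control, 57.9, 53.8 and 52.7 CPM with IN10018, 66.5, 136.3 and 87.4 CPM with crizotinib, and 109.8, 203.0 and 129.0 CPM with both. As in ZNF428, library 2 was the highest with crizotinib and with both drugs, and the combination lay around or above the control.

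In the NR4A family, NR4A1 was at 1.60 ± 0.30 (edgeR adjusted p = 0.11), close to NR4A2, and NR4A3 was at -0.45 ± 0.43 (0.68). NR4A1 was at 12.7, 20.03 and 14.7 CPM in the control, 5.38, 5.25 and 6.204 CPM with IN10018, 3.56, 4.11 and 2.48 CPM with crizotinib, and 3.33, 4.31 and 3.31 CPM with both, so the combination lay within or next to the range of crizotinib alone. Among KLF factors, KLF2 was at 2.20 ± 0.54 (0.24) and KLF4 at -0.35 ± 0.75 (0.86). EGR1, an early growth response factor, was at 0.57 ± 0.21 (0.54): its groups lay in an order without overlap, from 63.5 to 101.0 CPM in the control to 30.7 to 35.7 CPM with IN10018, 18.4 to 21.2 CPM with crizotinib and 10.9 to 12.6 CPM with both. PPP1R15A, a phosphatase subunit of the stress response, was at 0.82 ± 0.25 (0.41).

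Of the 36 gene lists, 33 had no called member. Beside the immediate early list, the list of FOXO and PI3K-off response genes had 2 of 23 tested members called above additivity. These were TRIB1 and KLF6, which are on both lists. The integrated stress response list had 1 of 33, ATF3. Over all tested genes, 0.0585% were called above additivity. On the FOXO list, CITED2 was at 0.64 ± 0.18 and the insulin receptor substrate gene IRS2 at 0.54 ± 0.16 (edgeR adjusted p = 0.32 and 0.36). In the stress list, JDP2 was at 0.57 and ATF5 at 0.72 (0.53 and 0.56). ERK pathway output and feedback genes had a median departure of 0.20 over 28 tested, NF-kB targets and cytokines 0.43 over 19, and cytosolic ribosomal proteins 0.27 over 69. The 13 mitochondrially encoded genes had a median of -0.94. Their share of reads was lowest in the combination and in crizotinib library 2, as given above, and without that library the median was -1.29. Medians near that of all genes were found for YAP/TAZ-TEAD targets (-0.07 over 23), the thioredoxin and peroxiredoxin system (0.08 over 25), drug targets and receptor kinases (-0.02 over 25), focal adhesion and integrins (-0.10 over 33), G1 to S and DNA replication (0.01 over 46) and G2 and mitosis (-0.12 over 57).

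None of the tested genes named for the title's pathway was called for a departure by edgeR in the main fit of all 12 libraries. PTK2, the gene of FAK, was at -0.38 ± 0.21, MET at -0.30 ± 0.22, the coactivator YAP1 at -0.28 ± 0.22, and the thioredoxin reductase TXNRD1 at -0.28 ± 0.20 (edgeR adjusted p 0.60 to 0.63). Thioredoxin itself, TXN, was at -0.04 ± 0.16, the E-cadherin gene CDH1 at 0.30 ± 0.29, and ALK at -0.13 ± 0.30. PTK2 was at 356.5, 350.0 and 357.2 CPM in the control, 338.3, 332.4 and 347.0 CPM with IN10018, 295.9, 180.4 and 237.0 CPM with crizotinib, and 190.1, 144.7 and 189.0 CPM with both. Crizotinib library 2 lay at the level of the combination, and the other 2 crizotinib libraries above it. CCN1, a secreted matrix protein gene and YAP target, was at 0.64 ± 0.18 (edgeR adjusted p = 0.32), with a change with IN10018 of -0.63 ± 0.12 alone and 0.01 ± 0.13 on crizotinib. ROS1 had 0 reads in the 12 libraries, which allows up to 0.0152 CPM over all of them (3 reads of the total, counting error only), so its departure could not be measured.

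A multiplicative expectation can ask for less than the assay can count. Additivity gives under 3 reads per combination library for 37 genes (0.216% of those tested), and in 30 of these (81.1%) the departure was above 0, against 44.0% of all tested genes. Their median departure was 1.69 with a median SE of 0.85, their median count with both drugs was 5.67 reads, and ATF3 was the 1 called. Under 10 expected reads there were 837 genes, of which 72.6% lay above 0. The estimate of the additive level and the departure come from the same libraries, so a low estimate and a high departure go together by construction. KLF4 is an example in which a floor hides the sign: it had 87, 72 and 112 reads in the control, 36, 30 and 28 reads with IN10018, 6, 1 and 6 reads with crizotinib, and 1, 0 and 2 reads with both. Additivity gives 1.43 reads and 1.00 was counted on average, so a level below additivity was not detectable at this depth. FOS and FOSB were far from this limit, with 986 and 149 reads given by additivity and 206 and 42.7 counted.

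**Figure D4:**
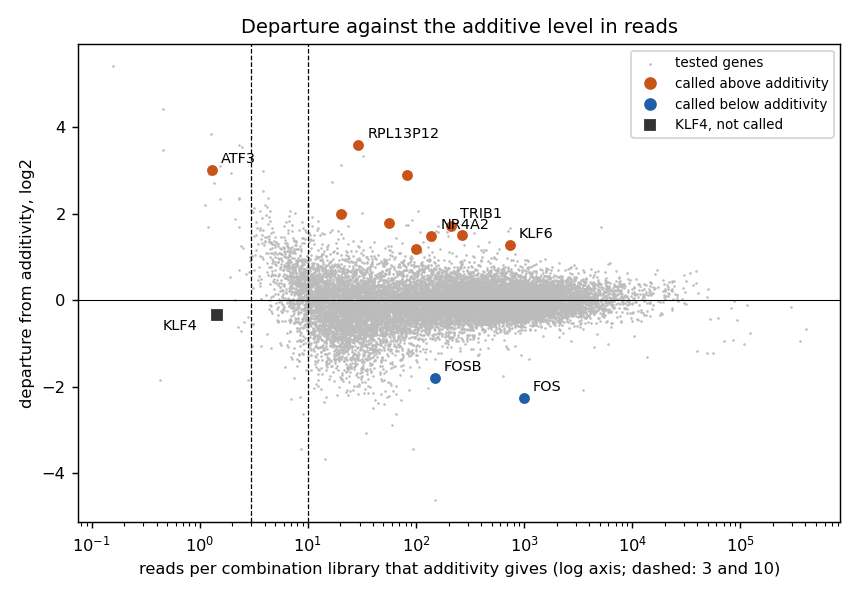
Departure from additivity on the log2 scale (y axis) against the reads per combination library that additivity gives (x axis, log scale) for the 17096 tested genes. Dashed lines mark 3 and 10 reads, coloured points the called genes and the square KLF4. To the left of 3 reads, 30 of 37 genes lie above 0. FOS and FOSB lie at 986 and 149 reads.

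The scale of the comparison decided the sign for FOS and FOSB. In differences of CPM, the level with both drugs was above the one that the single-drug differences add up to in all 12 called genes, FOS (406 ± 70.7 CPM, the SE taken from the SDs of the 4 groups) and FOSB (267 ± 59.6 CPM) included. That summed level was below 0 CPM for 7 of the 12 (-393 CPM for FOS, -264 for FOSB, -137 for TRIB1). For TRIB1 this linear departure was 181 ± 19.7 CPM and for KLF6 132 ± 18.1 CPM. A sum of differences that falls below 0 cannot be reached by any level, and these values are given without a test.

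The number of calls turned on single libraries. Without crizotinib library 2, the library that stood apart on the first component, 392 genes were called above additivity (2.25% of 17457 tested) and 413 below (2.37%), all 12 genes named above among them. With another single library left out, the counts were 1 to 9 above and 1 or 2 below. They fell to 1 above and 1 below without IN10018 library 2 or 3, to 1 above and 2 below without crizotinib library 3, to 2 above and 2 below without control library 1 or 2, to 3 above and 1 below without IN10018 library 1 or combination library 3, to 5 above without combination library 2, and 1 remained below without combination library 1. In the fit without crizotinib library 2, 11 of 35 immediate early genes were above additivity and 2 below, with JUND (1.998, edgeR adjusted p = 0.0025), PPP1R15A (1.11, 0.0063), NR4A1 (1.76, 0.013), JUNB (1.07, 0.032) and KLF2 (2.43, 0.036) among those above. Ribosomal protein genes had 10 of 69 above, cholesterol synthesis genes 5 of 29 above, the integrated stress response list 4 of 33 above, and mitochondrially encoded genes 9 of 13 below with a median of -1.29. EGR1 (0.56, edgeR adjusted p = 0.10), PTK2 (-0.55, 0.056), CCN1 (0.54, 0.055) and MET (-0.46, 0.11) were not called there either. These counts rest on 2 crizotinib libraries, 1 and 3, which had PC1 scores of -4.6 and 10.3 and mitochondrial shares of 13.3 and 9.5%, and the cause of the difference was not tested.

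**Figure D5:**
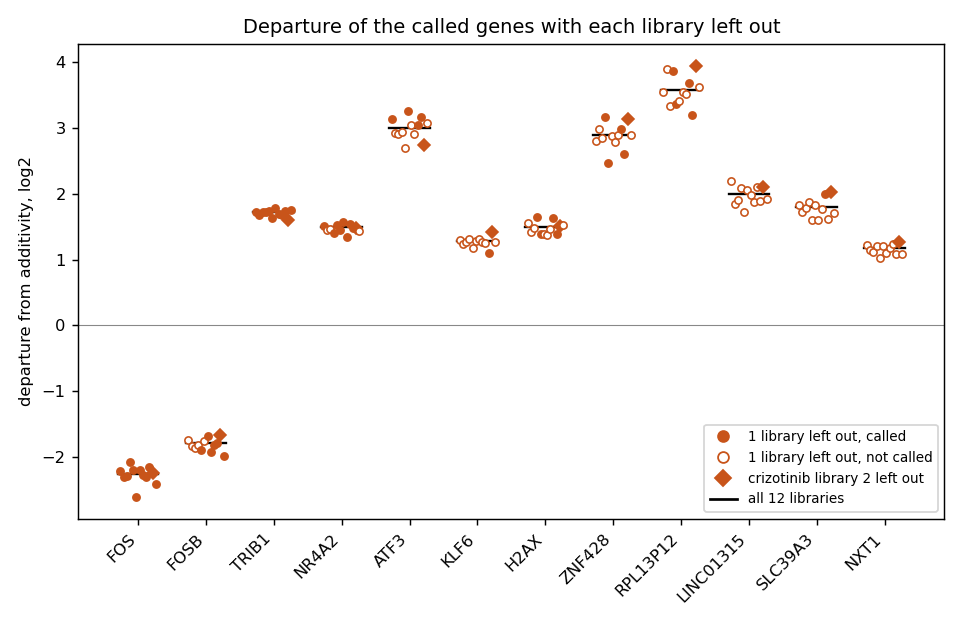
Departure from additivity on the log2 scale for the 12 called genes with each library left out in turn (points, filled where the call was made, diamonds for the fit without crizotinib library 2), beside the value with all 12 libraries (black line). FOS and TRIB1 are filled in all 12 fits, NR4A2 in 9 and FOSB in 7. No gene changes sign.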

How the data were processed

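The authors deposited raw read counts per gene for 12 libraries, not normalized. According to the submitters' processing notes, Trimmomatic, FastQC, HISAT2, featureCounts and DESeq2 were used with builds hg38 and GRCh38; versions, annotation release and strand setting are not given in the sources used here. Per the labels' protocols, libraries were made with a directional kit. All libraries entered 1 fit in edgeR 4.0.16 (R 4.3.3) with TMM scaling, filterByExpr by group, robust quasi-likelihood F tests and Benjamini-Hochberg adjustment over the 17096 tested genes (threshold 0.05). Fitted log2 values used a prior count of 0.125, and the SE is the log2 value divided by the square root of F. CPM was computed from the deposited counts with TMM factors. The additive level is the product of the fitted single-drug fractions of control, and reads under it use the mean size of the combination libraries. Percentages of control, and their products, use the mean CPM of each group instead. Annotation came from GENCODE 29, which held 96.5% of the gene identifiers. On simulated departures (16845 genes, 50 changed each way at each size), 52 and 54% were called at 1 and -1, and 100 and 90% at 2 and -2, with 3 false calls in 151. The changed genes all had a mean log2 CPM of at least 1. Counts were drawn independently, so no library stood apart over many genes as crizotinib library 2 did. The rates therefore do not cover lower genes or such a library.

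The members and lists were chosen with earlier results of these data known. Genes were named by rule: up to 15 called genes each way by size and 10 by p with a mean log2 CPM of at least 1, up to 4 members of lists with a call, title genes, and called genes under 3 expected reads. Relatives of called genes were added later. Alternatives were limma 3.58.1, DESeq2 1.42.0, other scalings and filters, a replicate block, a minimum of 1.5-fold and libraries left out.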

Additional observations from a re-analysis of the deposited data

How the results depend on the processing

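The counts of 10 genes above and 2 below additivity were taken again under each alternative. With 1 library left out the counts ran from 1 to 392 above and from 1 to 413 below; without crizotinib library 2 and combination library 2 together they were 933 and 984. Without a filter they were 175 and 124, with DESeq2 46 and 18, with limma-voom 7 and 1, and with limma-voom and sample quality weights 2198 and 3026, where weights ran from 0.136 (crizotinib library 2) to 5.91 (combination library 1). A minimum of 1.5-fold left 1 above (TRIB1) and 1 below (FOS). An offset for GC content and length gave 17 and 4. The cause was not tested. The minimum fold changes by construction what is asked, and the missing filter how many genes are tested. Without the filter RPL13P12 (3.58) and JUND (1.66) kept their departures, but their edgeR adjusted p fell to 3.9e-36 and 4.2e-14. The number of genes tested was thus not the only thing that changed in that fit. The replicate number as a block gave 21 above and 2 below, with the 12 genes among them; the numbers were not shown to pair libraries, since 8 of 18 same-numbered pairs had a correlation over 0.1 (-0.069 to 0.819) and 7 of 12 libraries correlated best with their own number. The same-numbered crizotinib and combination libraries were at 0.439, 0.819 and 0.477. With the block, JUND (1.67, edgeR adjusted p = 0.020) and NR4A1 (1.59, 0.037) were called. Other scalings, a stricter filter and a fit without robust shrinkage gave 7 to 10 above and 2 below, and scaling moved the median of all genes between -0.06 and -0.02. FOS (-2.62 to -2.09) and TRIB1 (1.57 to 1.78) were called in all 25 tested alternatives, NR4A2 in 21, FOSB in 18, ATF3, ZNF428 and RPL13P12 in 17, H2AX in 16, KLF6 in 14, SLC39A3 in 11 and LINC01315 and NXT1 in 10, and none of the 12 changed sign. Of the title genes, PTK2 and CCN1 were called in 2 of the 25 tested alternatives each, and MET, YAP1 and TXNRD1 in 1 each. TXN, CDH1 and ALK were called in none. Signs turned only in genes without a call. KLF4 was 0.47 with a prior count of 2 and -1.23 to 0.0866 with a library left out, and TXN was 0.11 with the GC and length offset and -0.14 to 0.0208 with a library left out. CDH1 was -0.0107 to 0.44 with a library left out, and ALK was 0.29 with quality weights. Depth limited genes under 2 CPM, whose median SE was 0.56 against 0.22 above it.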
